A study of Mus musculus with 15 samples.

Results

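Retinoid binding, metabolism and receptor genes were described in 2 mouse tumour lines with altered levels of Ssbp4. The group holds 9 genes out of 53088 gene symbols found in both expression tables: the binding proteins Crabp1 and Crabp2, the enzymes Adh7, Aldh1a3 and Cyp26b1, and the nuclear receptors Rara, Rarb, Rarg and Rxra. The genes were chosen by measured values: Crabp1 had the largest increase after Ssbp4 itself in MC38 cells overexpressing Ssbp4. MC38 values of the members are therefore a description without a test, and the comparison in B16-F10 cells carries the tests. The members were chosen with earlier results of these data known, so the B16-F10 tests may not be independent of that choice. In MC38, Crabp1 went from a mean of 0.788 to 33.1 FPKM, a level scaled for gene length and for the mapped fragments of the library. In B16-F10, Crabp1 was listed at 0 in all 8 libraries, Crabp2 fell to 60.3% of its wild-type mean in the knockout, and Adh7 rose to 151%, both with adjusted p-values just under 0.05 that most fits leaving out 1 library did not keep.

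Retinoic acid is made inside cells from retinol, the circulating form of vitamin A, by alcohol or retinol dehydrogenases and then by retinaldehyde dehydrogenases. The CRABP proteins carry it through the cytoplasm, either towards the enzymes that degrade it or towards the nucleus, and CYP26 enzymes break it down. In the nucleus it binds a retinoic acid receptor (RAR) paired with a retinoid X receptor (RXR), and the pair sits on DNA at direct repeats of a short half-site. Melanoma cells are a classical system for retinoic acid treatment, and colon epithelium is known for loss of retinoic acid production in tumours.

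MC38 is a line from a mouse colon adenocarcinoma, with 4 libraries of wild-type cells and 3 of cells stably transduced with the retroviral vector pMSCV-IRES-EGFP carrying murine Ssbp4 cDNA (OE). The labels name no MC38 group with an empty vector and no selection of a clone, and their tissue field reads melanoma for this line too. B16-F10 comes from a mouse melanoma, with 4 libraries labelled wild type and 4 labelled knockout (KO). Per the labels' protocols, Cas9 was electroporated with a mixture of guide RNAs against Ssbp4, or with a control guide for an intergenic stretch of chromosome 2, and whether the knockout is a clone or a mixed population of edited cells is not stated. Both lines grew in medium with fetal bovine serum, and no retinoid treatment is named. Whether the replicates were grown as separate cultures is not stated in the labels, so each p-value reflects variation among these libraries only, and that variation may be technical.

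Ssbp4 followed the labels: 13.2 to 17.6 FPKM in wild-type MC38 against 462 to 581 FPKM in OE, and 32.4 to 37.4 FPKM in wild-type B16-F10 against 19.0 to 24.3 FPKM in the knockout, where 64.1% of the wild-type mean remained (log2 difference -0.62, SE 0.08, limma adjusted p = 0.00869). Estimated depth ran from 32.1 to 38.0 M fragments across the MC38 libraries and from 32.2 to 48.3 M across those of B16-F10. Of 8 melanocyte markers, all had a mean of at least 1 FPKM in B16-F10, with a summed level of 12700 to 16600 FPKM in wild type and 16300 to 16800 FPKM in the knockout. Of 9 epithelial markers, 2 reached a mean of 1 FPKM in MC38 (Krt8 and Krt18), and Cdx2, an intestinal transcription factor, was at 0 in all MC38 libraries, so most colon epithelial markers were absent or low. The B16-F10 wild-type libraries were not uniform: on the first principal component (42.8% of the variance) replicates 1 and 2 lay at 9.4 and 10.3, replicates 3 and 4 both at -17.8, and the knockout libraries at 1.9 to 7.8. The tables were normalised separately by the authors, so levels are set side by side across lines without a test.

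Promoters are shown for 3 members whose starts differ in base composition and motif content: Crabp1, the gene with the large MC38 difference; Rarb, the textbook retinoic acid target; and Adh7, which was lower in MC38 OE and higher in the B16-F10 knockout. Each is the 250 bases before a transcription start, from RefSeq on GRCm38.p6, an earlier build than the GRCm39 named in the submitters' processing notes. Capitals mark GC boxes (GGGCGG or its reverse complement CCGCCC) in Crabp1 and a DR5 element, a direct repeat of half-sites with 5 bases between them, in Rarb. The Crabp1 window is chr9:54764498-54764747 on the plus strand, the Rarb window chr14:16575477-16575726 on the minus strand, and the Adh7 window chr3:138217523-138217772 on the plus strand, before the start that the RefSeq table lists for Adh7.
Crabp1: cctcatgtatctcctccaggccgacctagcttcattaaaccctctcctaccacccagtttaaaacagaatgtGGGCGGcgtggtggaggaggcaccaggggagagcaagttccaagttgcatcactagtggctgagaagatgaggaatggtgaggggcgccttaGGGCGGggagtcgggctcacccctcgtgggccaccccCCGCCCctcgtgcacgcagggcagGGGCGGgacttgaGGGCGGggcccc
Rarb: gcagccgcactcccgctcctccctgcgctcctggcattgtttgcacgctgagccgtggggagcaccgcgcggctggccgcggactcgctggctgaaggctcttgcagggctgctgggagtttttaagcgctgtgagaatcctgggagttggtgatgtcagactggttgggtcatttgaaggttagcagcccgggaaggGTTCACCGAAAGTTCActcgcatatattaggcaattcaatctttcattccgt
Adh7: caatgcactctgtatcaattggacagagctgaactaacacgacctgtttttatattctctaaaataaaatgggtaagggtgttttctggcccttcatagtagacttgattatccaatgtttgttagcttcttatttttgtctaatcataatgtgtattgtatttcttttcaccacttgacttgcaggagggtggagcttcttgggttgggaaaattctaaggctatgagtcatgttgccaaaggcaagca

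Crabp1 had 63.6% G and C in this window and 5 GC boxes, against a median of 52.4% over all promoters, of which 32.7% held a GC box. This was not particular to Crabp1. More G and C stood in windows of Rxra (81.2%, 3 GC boxes), Rarg (74.4%, 2), Rara (65.2%, 4) and Cyp26b1 (64.8%, 3). Other windows of Rxra, Rara and Rarg held less (52.4 to 59.6%). Rarb had 58.0% G and C, and Adh7 had 38.0% with no motif that was searched. In windows of 300 bases (the 250 before a start and the first bases after it), 3 spacings of the half-site letters GGTCA and GTTCA, leaving the first base of each half-site free, were searched on both strands. The DR5 forms were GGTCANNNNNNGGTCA, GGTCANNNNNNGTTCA, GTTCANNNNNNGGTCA and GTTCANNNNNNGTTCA, and 0.247% of 32851 promoters held one. The DR1 forms were GGTCANNGGTCA, GGTCANNGTTCA, GTTCANNGGTCA and GTTCANNGTTCA, with a share of 0.402%, and the DR2 forms were GGTCANNNGGTCA, GGTCANNNGTTCA, GTTCANNNGGTCA and GTTCANNNGTTCA, with 0.399%. Of the 9 members, 7 had windows, 12 in all, and the DR5 of Rarb, in the sense orientation 36 bases before the start, was the one match. The match describes these letters and does not show binding, and windows without a match say nothing about the receptors. Crabp2 and Aldh1a3 had no entry in the promoter table.

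The wild-type lines carried different sets of these transcripts. In wild-type MC38 the order of mean levels was Rarg at 17.5, Rxra at 12.5, Rara at 9.98, Adh7 at 4.29, Crabp1 at 0.788, Aldh1a3 at 0.762, Cyp26b1 at 0.391, Crabp2 at 0.161 and Rarb at 0 FPKM. Of the neighbours in this order only Crabp1 and Aldh1a3 overlapped in their library values. In wild-type B16-F10 the order was Rxra at 31.7, Rarg at 17.7, Rara at 8.84, Aldh1a3 at 5.22, Adh7 at 3.24, Crabp2 at 2.81, Rarb at 2.64, Cyp26b1 at 2.22 and Crabp1 at 0 FPKM. There Adh7, Crabp2 and Rarb each overlapped the next in order, so the ranks from Adh7 to Cyp26b1 are not separated. Rarg and Rxra headed both lists, whereas the binding protein present was Crabp1 with little Crabp2 in MC38 and Crabp2 without Crabp1 in B16-F10.

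**Figure D1:**
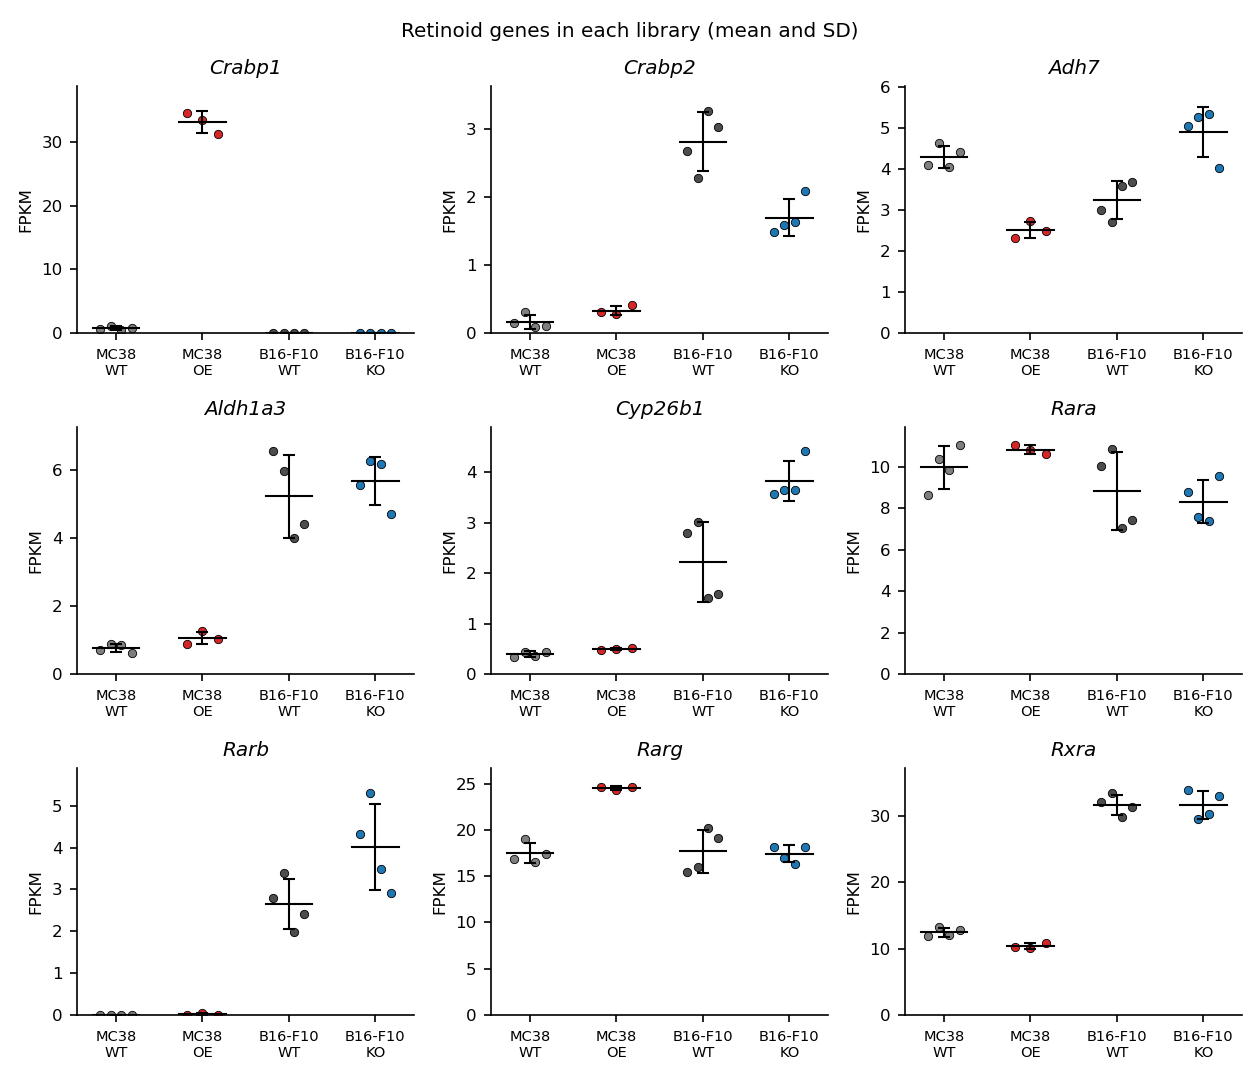
Level of each of the 9 members in every library, in FPKM on a linear axis of its own for each gene, with MC38 wild type and OE and B16-F10 wild type and KO in columns. Each point is 1 library, the wide line the group mean and the error bar its SD; Crabp1 reaches 31.2 to 34.6 FPKM in MC38 OE alone and lies at 0 throughout B16-F10, and Rarb lies at 0 in 6 of 7 MC38 libraries.

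Among the binding proteins, Crabp1, a cytoplasmic carrier of retinoic acid linked to its catabolism, stood at 0.67, 1.14, 0.542 and 0.802 FPKM in the 4 wild-type MC38 libraries and at 34.6, 33.5 and 31.2 FPKM in the 3 OE libraries. The groups did not overlap, and the lowest OE library was far above the highest wild-type library. Group means were 0.788 ± 0.257 FPKM (SD, n = 4) and 33.1 ± 1.75 FPKM (SD, n = 3), a ratio of 42.0 and a log2(FPKM + 1) difference of 4.26 (SE 0.10), which ranked 2 of 10748 genes after Ssbp4. At the 802-base transcript length in GENCODE M21, these values stand for about 20, 35, 15 and 21 fragments in wild type and 1054, 921 and 847 in OE, so the wild-type level rests on few fragments. Crabp1 met the filter of a mean of 1 FPKM only through the OE libraries. In B16-F10, where 1 fragment would be worth 0.0258 to 0.0387 FPKM, it was listed at 0 in all 4 wild-type and all 4 KO libraries.

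Crabp2, the carrier that passes retinoic acid to RAR in the nucleus, stood in wild-type B16-F10 at 2.67, 2.27, 3.26 and 3.02 FPKM and in the knockout at 1.48, 1.58, 1.62 and 2.09 FPKM. Every knockout library lay below every wild-type library, and KO replicate 4 was the nearest to wild type. Crabp2 fell from 2.81 ± 0.43 FPKM (SD, n = 4) to 1.69 ± 0.269 FPKM (SD, n = 4), a log2 difference of -0.50 (SE 0.10, limma adjusted p = 0.0467 over 10902 genes). The call passed in 6 of 16 alternatives: of the 8 fits that left out a library it held only without WT replicate 2 (adjusted p = 0.0463) or KO replicate 4 (0.0306), and it was lost without WT replicate 1 (0.0727), WT replicate 3 (0.0931), WT replicate 4 (0.109), KO replicate 1 (0.132), KO replicate 2 (0.158) or KO replicate 3 (0.151). In MC38, Crabp2 was at 0.0934 to 0.308 FPKM in wild type and 0.278 to 0.406 FPKM in OE, with overlapping groups below the filter. Crabp1 thus made up 78.7 to 89.0% of the summed Crabp1 and Crabp2 level in wild-type MC38, 98.7 to 99.2% in OE and 0% in B16-F10.

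Among the enzymes, Adh7, a class IV alcohol dehydrogenase that oxidises retinol to retinaldehyde, was lower with Ssbp4 overexpression in MC38 and higher with Ssbp4 knockout in B16-F10. The MC38 libraries stood at 4.09, 4.62, 4.04 and 4.41 FPKM in wild type and at 2.32, 2.72 and 2.49 FPKM in OE, without overlap (ratio 0.585, log2 difference -0.59, SE 0.07). The B16-F10 libraries stood at 2.99, 2.71, 3.59 and 3.68 FPKM in wild type and at 5.03, 5.26, 5.33 and 4.01 FPKM in the knockout, again without overlap and with KO replicate 4 nearest to wild type. In B16-F10 Adh7 rose from 3.24 ± 0.469 FPKM (SD, n = 4) to 4.91 ± 0.61 FPKM (SD, n = 4), a log2 difference of 0.48 (SE 0.10, limma adjusted p = 0.049). This call passed in 5 of 16 alternatives. Of the fits that left out a library it held only without KO replicate 4 (adjusted p = 0.0262), and it was lost without WT replicate 1 (0.0834), WT replicate 2 (0.0749), WT replicate 3 (0.0747), WT replicate 4 (0.0847), KO replicate 1 (0.132), KO replicate 2 (0.163) or KO replicate 3 (0.152).

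Cyp26b1, which hydroxylates retinoic acid and so clears it, stood in wild-type B16-F10 at 2.80, 3.01, 1.51 and 1.58 FPKM and in the knockout at 3.57, 3.64, 3.65 and 4.41 FPKM. The groups did not overlap, but wild-type replicates 1 and 2 lay near the knockout libraries and replicates 3 and 4 well below. The means were 2.22 ± 0.792 FPKM (SD, n = 4) and 3.82 ± 0.397 FPKM (SD, n = 4), and the log2 difference of 0.61 (SE 0.16) missed the threshold with limma (adjusted p = 0.0735). In MC38 Cyp26b1 was at 0.334 to 0.446 FPKM in wild type and 0.478 to 0.516 FPKM in OE, below the filter and without overlap.

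Aldh1a3, a retinaldehyde dehydrogenase that makes retinoic acid, stood in B16-F10 at 6.55, 5.95, 4.00 and 4.40 FPKM in wild type and 5.56, 6.27, 6.16 and 4.71 FPKM in the knockout. The knockout values lay within the wild-type range, and the log2 difference was 0.12 (SE 0.14, limma adjusted p = 0.679). In MC38 its wild-type libraries stood at 0.623 to 0.876 FPKM and its OE libraries at 0.882, 1.25 and 1.04 FPKM. The MC38 groups were separated by less than the spread within either group, and the mean over all libraries was below the filter.

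Among the receptors, Rarg, the receptor that led the RAR genes in both lines, stood in MC38 at 16.9, 19.0, 16.6 and 17.4 FPKM in wild type and at 24.6, 24.3 and 24.7 FPKM in OE. The OE libraries lay close together and above all wild-type libraries, with means of 17.5 ± 1.07 (SD, n = 4) and 24.5 ± 0.188 FPKM (SD, n = 3), a ratio of 1.40 and a log2 difference of 0.47 (SE 0.05). In B16-F10 Rarg stood at 15.5, 16, 20.2 and 19.1 FPKM in wild type and at 18.2, 17.0, 16.3 and 18.2 FPKM in the knockout. These groups overlapped, and the log2 difference was -0.02 (SE 0.09, limma adjusted p = 0.945). Rxra, the common dimer partner of the RARs, stood in MC38 at 11.9, 13.3, 12.1 and 12.8 FPKM in wild type and 10.3, 10.0 and 10.8 FPKM in OE (ratio 0.831, log2 difference -0.25, SE 0.05), with every OE library below wild type. The median log2 difference of tested genes on its chromosome was -0.11. In B16-F10 Rxra had the same mean in both groups, 31.7 ± 1.52 and 31.7 ± 2.10 FPKM (SD, n = 4 each, limma adjusted p = 0.991).

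Rara, the broadly expressed RAR, overlapped between groups in both lines. It stood at 8.63 to 11.1 FPKM in wild-type MC38 and 10.6 to 11 FPKM in OE. In B16-F10 it stood at 7.03 to 10.8 FPKM in wild type and 7.40 to 9.56 FPKM in the knockout (log2 difference -0.06, SE 0.13, limma adjusted p = 0.828). Rarb, itself a target of RAR through the DR5 shown above, was listed at 0 in 6 of 7 MC38 libraries and at 0.0462 FPKM in OE replicate 2. In B16-F10 it stood at 2.78, 3.39, 1.99 and 2.41 FPKM in wild type and at 4.32, 5.30, 3.50 and 2.92 FPKM in the knockout. KO replicate 4 lay inside the wild-type range and the other KO libraries above it. The means were 2.64 ± 0.593 and 4.01 ± 1.03 FPKM (SD, n = 4 each), and the log2 difference of 0.45 (SE 0.16) missed the threshold with limma (adjusted p = 0.15). Tested genes on chromosome 14, where Rarb lies, had a median log2 difference of 0.16. After centring each chromosome the difference was 0.30 (adjusted p = 0.302).

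**Figure D2:**
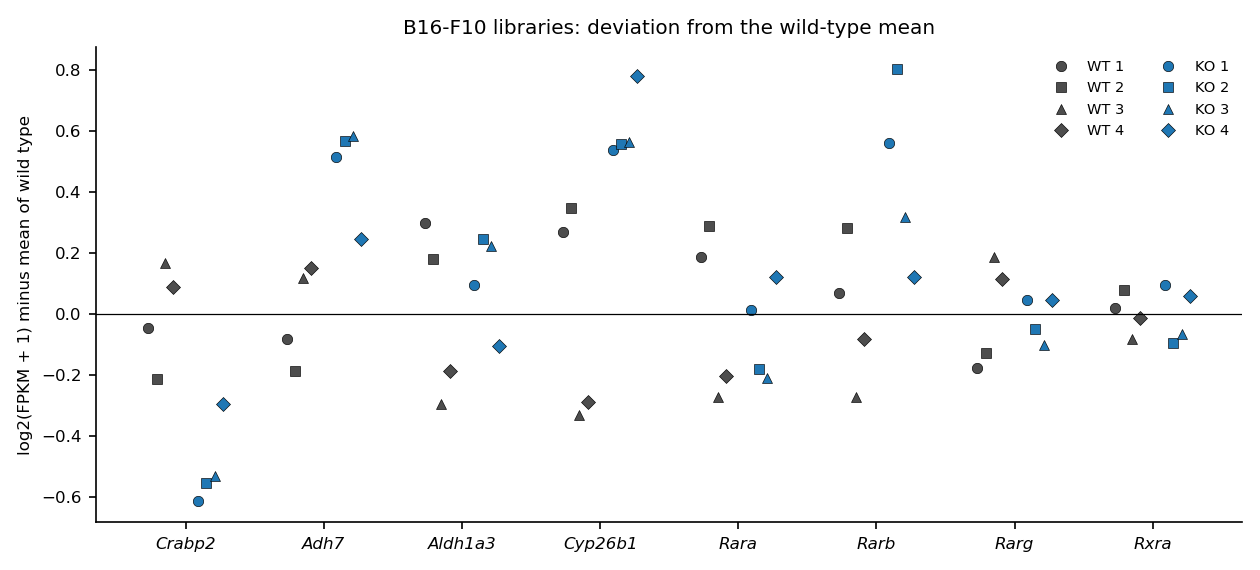
Members expressed in B16-F10, as the deviation of each library's log2(FPKM + 1) from the wild-type mean, with genes along the horizontal axis, dark symbols for wild type, blue symbols for KO and a symbol shape for each replicate number. Aldh1a3, Cyp26b1, Rara and Rarb lie higher in wild-type replicates 1 and 2 than in 3 and 4, and Crabp2, Adh7 and Rarg lie higher in 3 and 4.

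The summed level of Rara, Rarb and Rarg was 25.5 to 29.4 FPKM in wild-type MC38 and 35.2 to 35.6 FPKM in OE, and Rarg made up 61.2 to 66.2% and 69.0 to 69.9% of it. In B16-F10 the sum was 28.3 to 30.3 FPKM in wild type and 27.2 to 31.3 FPKM in the knockout. The Rarb share was 6.82 to 11.2% in wild type and 9.54 to 17.8% in the knockout, with overlap.

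**Figure D3:**
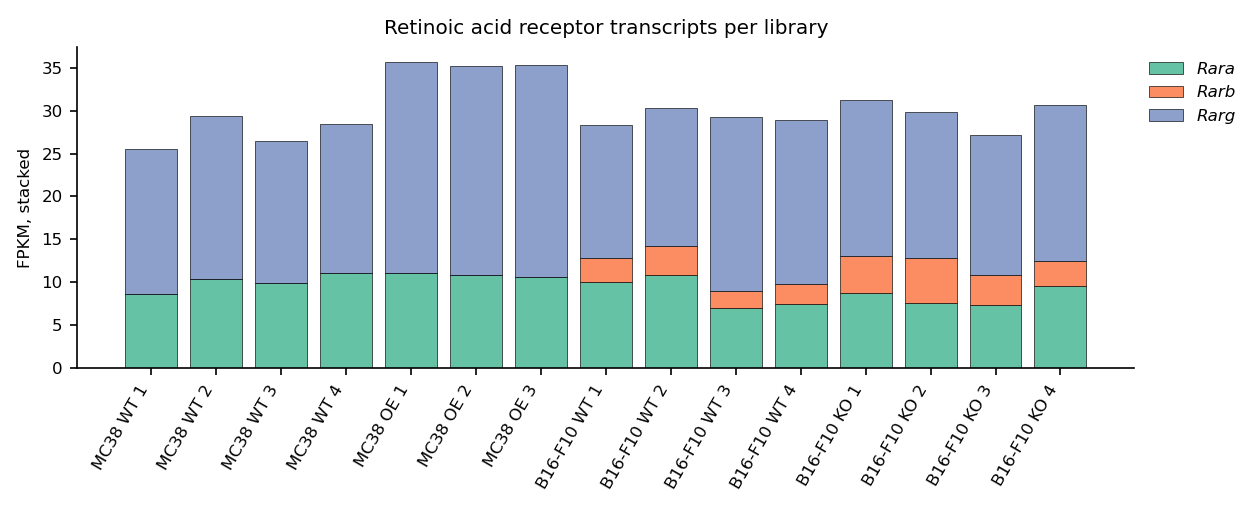
Rara, Rarb and Rarg as stacked levels in FPKM for each of the 15 libraries, from 0. The stack is higher in the 3 MC38 OE libraries (35.2 to 35.6 FPKM) than in MC38 wild type, and Rarb is visible in B16-F10 alone.

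Counted over the group, 5 of 9 members reached the filter in MC38 and 4 did not. In MC38, OE lay above wild type without overlap for 4 members (Crabp1, Rarg, Aldh1a3 and Cyp26b1) and below for 2 (Adh7 and Rxra), and 3 overlapped. Of the 5 that reached the filter, OE lay above wild type for 2 and below for 2, and 1 overlapped. Of all tested MC38 genes, 50.6% did not overlap (25.5% higher and 25.1% lower in OE) and 47.5% passed the test (23.9% higher and 23.6% lower), and nothing is read from the members' count here because the same contrast chose them. In B16-F10, 8 members were tested, 1 rose (Adh7), 1 fell (Crabp2) and 6 did not pass, where 2.23% of all tested genes passed (1.33% higher and 0.899% lower). The groups did not overlap for 3 of the 8 tested members, 2 higher and 1 lower, against 13.9% of all tested genes (8.53% higher and 5.32% lower). Adh7 and Crabp2 lay close to the threshold, and which of these calls passed depended on the libraries included.

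**Figure D4:**
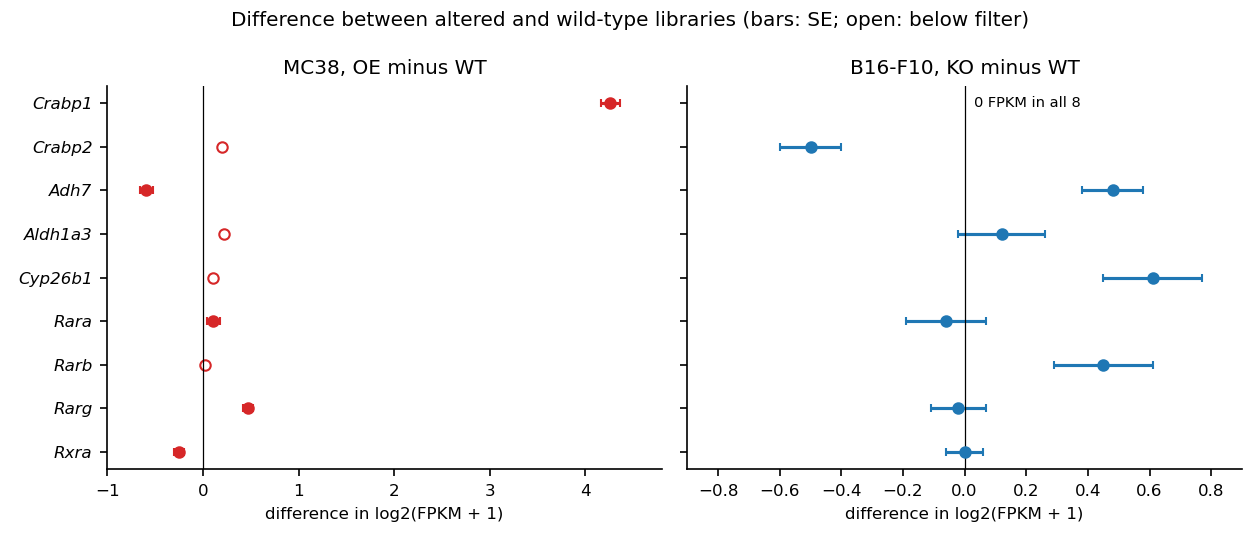
Difference in log2(FPKM + 1) between altered and wild-type libraries for each member, MC38 OE minus wild type on the left and B16-F10 KO minus wild type on the right, with bars of 1 SE where the gene was tested and open points for genes below the filter; the panels differ in scale. Crabp1 lies at 4.26 in MC38 and the B16-F10 values lie between -0.50 and 0.61.

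Beyond the members, 82 other retinoid genes in 7 lists were counted. In MC38, 40 were tested, 11 rose and 7 fell, which is 45.0% against 47.5% of all genes, with a median log2 difference of -0.02 against -0.009. Of 13 uptake and storage genes 4 were tested, 3 were called higher and 0 lower, also at an unadjusted p under 0.05. Of all 10748 tested genes, 23.9% were called higher and 23.6% lower, and 5837 had an unadjusted p under 0.05 with limma. Stra6, the membrane receptor that takes up retinol, had a mean of 0.587 ± 0.106 FPKM in wild type (SD, n = 4), against 3.69 ± 0.385 FPKM for OE (SD, n = 3), a log2 difference of 1.56 (SE 0.09). Like Crabp1, Stra6 met the filter only through the OE libraries, so it had to differ to be tested, and every count that holds it, including the 11 above, is a description. Rbp2, the intestinal retinol binding protein, rose from 1.17 to 2.13 FPKM. Stra6 is also on the list of retinoic acid responsive genes, of which 6 of 13 tested were called higher and 0 lower, also at an unadjusted p under 0.05. The share called on this list, 46.2%, was near the 47.5% of all tested genes. Among the others that rose were Tgm2, a transglutaminase (3.52 to 6.35 FPKM), the homeobox genes Meis1 and Meis2, and the orphan receptor Nr2f2.

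Of 8 tested oxidoreductases in MC38, 2 rose and 1 fell. Rdh11, a retinal reductase, rose from 16.5 to 27.3 FPKM (log2 difference 0.70), Rdh14 rose from 7.06 to 9.57 FPKM, and Adh5, the formaldehyde-handling class III alcohol dehydrogenase, fell from 105 to 79.9 FPKM. Of 4 RXR isoforms and partners, Thra, the thyroid hormone receptor alpha gene, rose from 8.11 to 15.7 FPKM and Rxrb fell from 25.2 to 20.3 FPKM. Of 13 coregulators 1 rose and 4 fell, with Gps2 (26.3 to 20.7 FPKM) and Tbl1x (50.7 to 44.1 FPKM), both parts of the NCoR corepressor complex, and the acetyltransferase gene Crebbp (4.82 to 3.90 FPKM) among those that fell. Fabp5, the fatty acid binding protein that can carry retinoic acid to another receptor, fell from 35.7 to 19.8 FPKM (log2 difference -0.82, limma adjusted p = 2.29e-07). The degradation genes Cyp26a1 and Cyp26c1 were not tested in either line.

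In B16-F10, 39 of the other retinoid genes were tested, 3 rose and 0 fell, which is 7.7% against 2.23% of all genes. At an unadjusted p under 0.05 with limma, 6 of the 39 were higher and 1 lower, against 2325 of all 10902 genes in either direction. At this threshold the share of the listed genes was not above that of all tested genes. The 3 were Rdh14 (10.2 ± 0.616 to 12.7 ± 0.336 FPKM, log2 difference 0.29, limma adjusted p = 0.0379), Meis2 (30.9 ± 0.956 to 36.4 ± 0.54 FPKM, 0.23, adjusted p = 0.0349) and Rdh11 (31.2 ± 0.684 to 36.2 ± 1.21 FPKM, 0.21, adjusted p = 0.0467). All 3 were also higher in MC38 OE. Of the 8 fits that left out a library, the calls held without KO replicate 4 (adjusted p 0.0387, 0.0392 and 0.0359 for Rdh14, Meis2 and Rdh11), and Rdh14 also without WT replicate 1 (0.048); they were lost without any other. In the lists with no call, the most abundant tested genes were Dgat1, a retinol and triglyceride acyltransferase (17.0 to 18.2 FPKM), the LXR gene Nr1h2 (33.9 to 37.4), the corepressor gene Ncor1 (51.4 to 53.6) and Fabp5 (336 to 252 FPKM, limma adjusted p = 0.133).

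**Figure D5:**
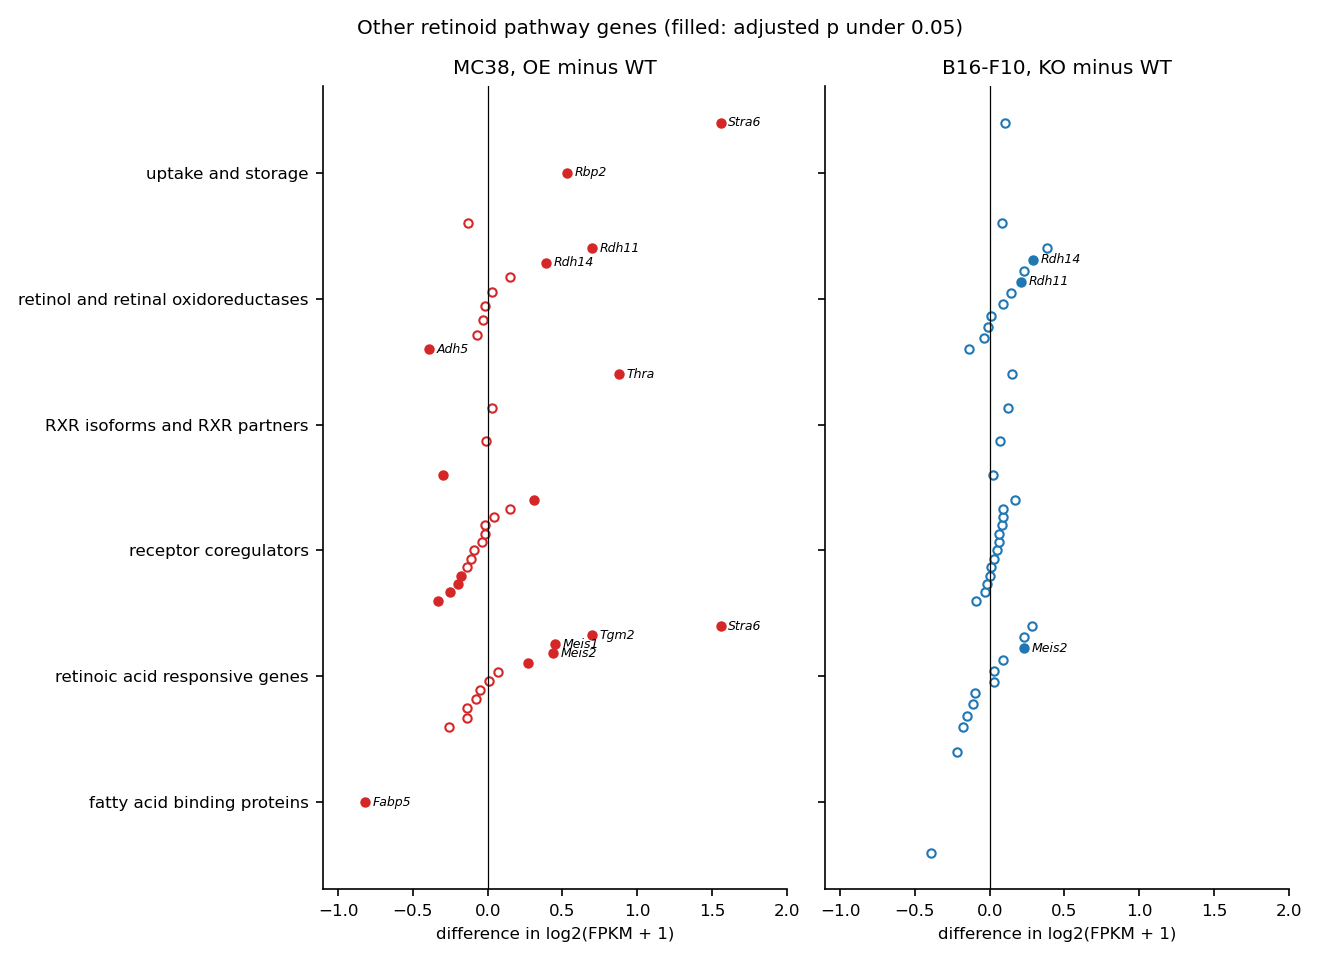
Difference in log2(FPKM + 1) for the tested genes of the other retinoid lists, 1 point a gene and 1 row of points a list, MC38 on the left and B16-F10 on the right, filled where the adjusted p was under 0.05. Of the genes drawn, Stra6 (1.56) lies farthest right in MC38 and appears in both lists that hold it, 1 listed gene is not drawn, and 3 points are filled in B16-F10.

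Cell type markers also moved in MC38 beside the Crabp1 difference, where 47.5% of all tested genes were called. The summed level of 6 fibroblast markers was 82.0 to 87.4 FPKM in wild type and 384 to 392 FPKM in OE, most of it from Dcn and Pdgfra. Of the 6, 3 had a mean of at least 1 FPKM: Dcn (65.6 to 320 FPKM), Pdgfra (17.6 to 66.1 FPKM) and Lum (0.219 to 2.19 FPKM). Lum met this filter only through the OE libraries. Below the filter and not tested, Col1a1 went from 0.0627 to 0.178 FPKM without overlap, and Col1a2 overlapped between groups (0.392 to 0.479 FPKM). Thy1 was at 0 in all wild-type libraries and above 0 in OE replicate 1 alone (0.0149 FPKM). Summed epithelial markers were 6.68 to 8.86 and 8.96 to 10.8 FPKM, where Krt8 rose from 3.22 to 9.45 FPKM and Krt18 fell from 3.23 to 0.0607 FPKM. Below the filter and not tested, Epcam went from 0.846 FPKM to 0 in every OE library, Cdh1 from 0.306 to 0.0333 FPKM and Krt19 from 0.17 to 0.0055 FPKM, each without overlap, while Krt20 was higher in OE (0.00337 to 0.0629 FPKM). Summed leukocyte markers were 2.06 to 2.86 FPKM in wild type and 3.04 to 4.16 FPKM in OE, where Cd68 rose from 2.49 to 3.52 FPKM. Summed endothelial markers were 4.33 to 5.72 and 2.94 to 3.63 FPKM, where Egfl7 fell from 4.79 to 3.15 FPKM. The part of these shifts in the Crabp1 difference was not tested. In B16-F10 the summed fibroblast markers were 3.11 to 4.77 and 3.61 to 6.03 FPKM, and 6 of 9 epithelial markers were at 0. In bulk RNA, fewer cells carrying a transcript and less transcript per cell cannot be told apart.

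The genes most like Crabp1 over the 15 libraries were found by the Euclidean distance between deviations of log2(FPKM + 1) from the wild-type mean of the own line, among 10075 genes. Crabp1 deviated by 0 in every B16-F10 library. The likeness therefore describes mainly the rise in the MC38 OE libraries, the values by which Crabp1 was chosen, and is no separate support. Penk, the proenkephalin gene, was nearest (distance 1.35; 3.94 to 54.3 FPKM in MC38 and 0 in B16-F10). Asb4 (1.95), Rgs5 (2.14), Enpp2 (2.38) and Scara5 (2.52) followed. In MC38 their means went from 0.58 to 13.1, 0.23 to 9.19, 0.792 to 13.0 and 0.586 to 10.2 FPKM, so all of these met the filter only through the OE libraries. Enpp2, which encodes autotaxin, differed from Crabp1 in level in B16-F10, at 46.8 FPKM in wild type and 41.4 FPKM in the knockout.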

How the data were processed

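Polyadenylated RNA of 15 libraries was sequenced; per the labels' protocols the kit was stranded. For each line the authors deposited FPKM by gene symbol, normalised by them beforehand. GRCm39 and DESeq2 appear in the submitters' processing notes, with no version or role. Aligner, counter and annotation were not given in the sources used here. Columns were matched by their labels, with 0 left unmatched. Column sums of 482580 to 511160 show that values were not scaled to a common total.

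Each line was tested alone with limma 3.58.1 in R 4.3.3 on log2(FPKM + 1) with a mean-variance trend, for genes averaging at least 1 FPKM in the line (10748 in MC38, 10902 in B16-F10). P-values were adjusted by Benjamini-Hochberg over all tested genes, and a call is an adjusted p under 0.05. A difference on this scale understates the fold of low genes. Depth came from the steps between low FPKM values, of which 83.7 to 87.0% lay within 0.1 of a whole number of fragments, so counts were not recovered for nearly all genes and no count model was used. No pair of replicates agreed within sampling noise. Scripts were tested on simulated data. Members and gene lists were chosen with earlier results of these data known. Named genes are the 9 members, Ssbp4, the 6 highest and 6 lowest called genes of the other retinoid lists per line, the most abundant tested gene of a list without a call, and the 5 genes nearest Crabp1. Other genes named from the lists, the markers and the genes below the filter were picked with their values known. A gene taken by the naming rule is not reported here, and counts over the lists keep it. The alternatives varied the pseudocount, filter, scaling, weights, block and chromosome centring, and left out each library in turn. Promoters came from RefSeq (GRCm38.p6) by symbol. Figures used matplotlib 3.10.9.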

Additional observations from a re-analysis of the deposited data

Results flagged for a closer look

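In 2 of 53 groups of 4 libraries examined, 1 library stood apart from the others by Dixon's test at the 95% level, where chance gives about 1 in 20. Cyp26b1 was at 4.41 FPKM in B16-F10 KO replicate 4 and at 3.57 to 3.65 FPKM in the other KO libraries (gap over range 0.905). Ssbp4 was at 13.2 FPKM in wild-type MC38 replicate 1 and at 17.0 to 17.6 FPKM in the other wild-type libraries (gap over range 0.873).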

How the results depend on the processing

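In MC38 the count of genes called (5107) ranged from 3906 to 5463 over 14 alternatives, and the 18 other retinoid genes called ranged from 17 to 22. Rbp2, Thra, Tgm2, Rdh11, Fabp5, Adh5, Gps2, Rxrb, Crebbp and Tbl1x, named because they were called in the main fit, passed in all 14. Stra6 did too, but in the main fit it met the filter only through the OE libraries, so its calls are a description. The other MC38 genes named from these lists were not followed one by one. In B16-F10 the 243 calls became 140 with a filter of 0.1 FPKM, 73 without a filter, 1435 with library weights and 154 with chromosome centring, and 23 to 414 when 1 library was left out (414 without KO replicate 4; 27, 23 and 26 without KO replicates 1, 2 and 3; 93, 119, 44 and 41 without WT replicates 1 to 4). Among B16-F10 calls 59.7% were higher, against 73.1% with a common total and 42.9% with median-of-ratios scaling. The 2 members called became 0 with a filter of 0.1 FPKM or none, 1 with median-of-ratios scaling, 1 with chromosome centring, and 0 to 2 when 1 library was left out. The 3 other retinoid genes called became 1 without a filter, 5 with library weights, 1 with chromosome centring, and 0 to 5 when 1 library was left out. Cyp26b1 passed with library weights alone (adjusted p = 0.0454, range 0.0454 to 0.185), and Rarb in 0 of 16 (0.0814 to 0.328). The ranges were 0.012 to 0.158 for Crabp2 and 0.00481 to 0.163 for Adh7.

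Differences near 0 changed sign in B16-F10. Rara ranged from -0.15 to 0.03 with 1 library left out, Rarg from -0.07 to 0.05 and Rxra from -0.03 to 0.03. With a common total Rarg was at 0.00 and Rxra at 0.02, and with library weights Rarg was at 0.04. The causes were not tested.

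Same-numbered libraries did not deviate together (correlations of -0.29, -0.07 and -0.07 in MC38 and -0.11, -0.18, 0.17 and -0.30 in B16-F10). This gave no sign that the numbers pair them, but so few libraries cannot exclude pairing. With the replicate block, 12 genes were called in B16-F10, 0 members and 0 other retinoid genes, and 3906 genes in MC38; adjusted p was 0.113 for Crabp2, 0.155 for Adh7 and 0.089 for Ssbp4. Depth limits Crabp1 in wild-type MC38, at 15 to 35 fragments.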

Other observations

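Some retinoid genes below the filter in MC38 were higher in every OE library than in every wild-type library; they were chosen after their values were seen and were not tested. Dhrs3, a retinal reductase, had a mean of 0.0442 FPKM in wild type and 0.321 FPKM in OE. Aldh1a1, a retinaldehyde dehydrogenase, was at 0.014 and 0.187 FPKM, and Aldh1a7 at 0.0476 and 0.494 FPKM; these are close paralogs between which reads can be split uncertainly. Rxrg, the third RXR gene, was listed at 0 in 3 of 4 wild-type libraries and had a mean of 0.393 FPKM in OE. Rlbp1, from the uptake and storage list, went the other way without overlap, at 0.0441 FPKM in wild type and 0.00407 FPKM in OE. The share of all genes below the filter with such separation was not counted.

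By the same distance as for Crabp1, over 11044 genes, Aldh1a3 was nearest to Adhfe1 (0.35), Zfp512b (0.38) and Tpm4 (0.38). Cyp26b1 was nearest to Adamts14 (0.37), Hgsnat (0.40) and Mest (0.43), and Rarb to Fndc4 (0.43), Rnf144a (0.46) and Daam2 (0.47). In B16-F10 the mean of Hgsnat was 148 FPKM in wild type and 204 FPKM in the knockout, that of Mest 34.9 and 49.6 FPKM, and that of Daam2 3.03 and 4.96 FPKM.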
